A study of Homo sapiens with 6 samples.

Results

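The comparison was between 2 CRISPR guides against the same gene, sgMETTL1.6 against sgMETTL1.3, in the human leukaemia line Mono-mac-6. Its members were the 4 RNA sequencing libraries of these guides, of 6 in the series, and the 10868 of 18806 gene symbols in the deposited table that averaged at least 1 TPM (a relative transcript level, corrected for transcript length and library size) over those 4 libraries. At the edge of this filter, the lowest gene kept averaged 1.0025 TPM and the highest left out 0.9975 TPM. Mono-mac-6 is an acute myeloid leukaemia line that carries the MLL-AF9 fusion. Every group started from a single Cas9-expressing clone of it, received its guide by lentivirus, was selected with blasticidin (10 µg/ml) and hygromycin (200 µg/ml), and was harvested 8 to 10 days after transduction. The groups were sgMETTL1.3, sgMETTL1.6 and the control guide sgNS, with 2 libraries each. In the deposited data the libraries of all groups also bear the tag EV, which is left unexplained. Whether the cells shared a further condition besides Cas9 and a guide is therefore unknown. The labels do not say whether the libraries of a group came from separate cultures, so p-values measure the spread between these libraries only, and results from 1 clone of 1 line need not hold in another. The sequences of the guides were not analysed here.

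METTL1 is the enzyme that places 7-methylguanosine on the variable loop of a subset of transfer RNAs, and it works as a complex with WDR4. The mark stabilises those tRNAs and supports translation of the codons they read, and the complex is often studied in cancer cells because tRNA supply shapes protein output. Guides against the same gene share that target and can differ in how far they cut it, in the alleles they leave, and in sites elsewhere. Per the series' design text, loss of METTL1 was checked on protein blots, which were not analysed here. No editing was measured in these libraries, and which of these set the guides apart was not tested.

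With sgMETTL1.6, genes of sterol and unsaturated fatty acid synthesis were higher than with sgMETTL1.3, led by SREBF1, and antioxidant, iron-storage and lysosomal genes were lower, led by HMOX1 and FTH1. Genes of the integrated stress response were also lower. Most of these differences were small: the median size among genes past the test was 0.21 on the log2 scale, a 1.16-fold difference. The test throughout was limma on log2(TPM + 1), with Benjamini-Hochberg adjusted p under 0.05 over all 10868 genes, and all differences are sgMETTL1.6 minus sgMETTL1.3. Adding 1 TPM understates the difference of low genes.

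By this test 2515 genes differed between the guides (23.1% of those tested), of which 787 were higher with sgMETTL1.6 (7.24%) and 1728 lower (15.9%). In each of the 2515 the values of the guides did not overlap, which passing the test nearly implies with 2 libraries a group. The share of all tested genes without overlap was not counted, so this adds no support to the calls. Of the called genes, 42 were higher and 94 lower by at least 0.5 on the log2 scale, and 3 were higher and 7 lower by at least 1. Against sgNS in the same model, sgMETTL1.3 changed 6341 genes (58.3%) and sgMETTL1.6 changed 5518 (50.8%), so fewer genes separated the guides than separated either of them from the shared control libraries. The first principal component of the 4 guide libraries separated the guides and carried 66.9% of their variance, and the second, with 18.8%, separated replicates. The split between higher and lower calls depended on scaling. TPM fixes the total of each library, and the median gene stood at -0.05. Median-ratio scaling moved that median to -0.01 and gave 1115 genes higher and 808 lower, quantile scaling gave 972 and 801, and rescaling without ribosomal protein genes gave 946 and 979. A count of list members below is to be set beside these shares over all genes. The medians of 8 lists, given with those lists below or in the closing section, turned from below 0 to above it under a scaling.

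**Figure D1:**
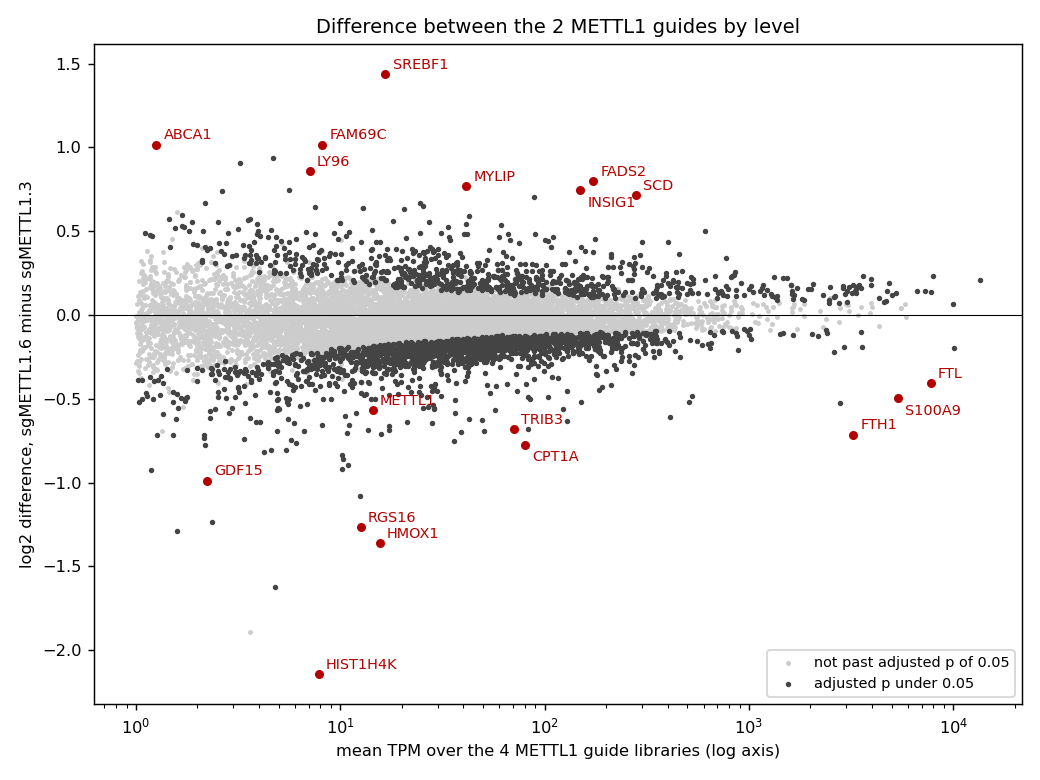
Each point is 1 of the 10868 genes tested, with its mean TPM over the 4 METTL1 guide libraries (log axis) against its log2 difference, sgMETTL1.6 minus sgMETTL1.3, on the log2(TPM + 1) scale. Dark points passed an adjusted p of 0.05, and the genes in red are described in the text: SREBF1 at 1.44 and HMOX1 at -1.36 stand far from the band that holds most genes.

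The targeted gene itself differed between the guides. METTL1 (chromosome 12, 57768471 to 57772793, minus strand, GRCh38) was at 18.29 and 16.56 TPM with sgMETTL1.3, at 11.15 and 11.69 TPM with sgMETTL1.6 and at 15.38 and 13.89 TPM with sgNS. The control libraries lay between the guides, above both sgMETTL1.6 libraries and below both sgMETTL1.3 libraries. The difference between the guides was -0.57 ± 0.070 (SE, limma adjusted p = 0.00016). Against sgNS, METTL1 was different by 0.24 with sgMETTL1.3 (limma adjusted p = 0.011) and by -0.33 with sgMETTL1.6 (limma adjusted p = 0.0016). A gene-level TPM counts edited and unedited transcripts together, so it measures neither loss of the protein nor the share of cut alleles, and it does not check the guides' labels. WDR4, the partner of METTL1, was at 35.46 and 35.63 TPM with sgMETTL1.3 and at 30.65 and 34.36 TPM with sgMETTL1.6, which did not pass the test (-0.13 ± 0.078, limma adjusted p = 0.25).

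The widest rise with sgMETTL1.6 was in SREBF1, which encodes the transcription factor SREBP-1 that drives fatty acid synthesis. SREBF1 (chromosome 17) was at 8.02 and 9.03 TPM with sgMETTL1.3, at 25 and 24.54 TPM with sgMETTL1.6 and at 37.25 and 39.85 TPM with sgNS. Both guides were below the control, and sgMETTL1.3 was the further from it. The difference between the guides was 1.44 ± 0.064 (limma adjusted p = 3.1e-08), 2.71-fold on this scale. FADS2 and SCD, which SREBP-1 is known to activate, were higher too. Not every gene of fatty acid synthesis followed SREBF1: some were lower or did not pass the test, as given in the next paragraph. FADS2, the desaturase that starts synthesis of long polyunsaturated fatty acids, was at 124.1 and 127.66 TPM with sgMETTL1.3 and at 214.9 and 224.3 TPM with sgMETTL1.6 (0.80 ± 0.038), with 288.17 and 300.95 TPM in sgNS. SCD, which makes monounsaturated fatty acids, was at 213.46 and 210.56 TPM against 350.16 and 347.41 TPM (0.72 ± 0.031), with 443.58 and 454.93 TPM in sgNS. These 3 genes kept 1 order: lowest with sgMETTL1.3, intermediate with sgMETTL1.6 and highest with sgNS, with no overlap between groups.

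The list of fatty acid synthesis and desaturation had 16 tested members, of which 9 were higher and 2 lower with sgMETTL1.6. Its median was 0.17, beside -0.05 for all genes. ACSL3, which activates long-chain fatty acids, rose from 51.05 and 48.53 TPM to 74.06 and 71.49 TPM (0.54 ± 0.044), and FADS1 rose by 0.38. FASN, the fatty acid synthase, differed by 0.19 and ACSL4 by 0.21. The members that fell were ME1 (-0.70), a source of NADPH that also belongs to the antioxidant list, and GPAM (-0.23), which starts glycerolipid synthesis. ACLY and ACSS2, which supply acetyl-CoA, did not pass the test (0.01 and -0.08). Under each of the 3 other scalings 9 were higher and 1 lower.

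Cholesterol genes were higher as well, by smaller amounts. Of 26 tested members of the list of cholesterol synthesis and uptake, 16 were higher and 0 lower with sgMETTL1.6, with a median of 0.19, and the count of higher members lay between 12 and 19 over every alternative tried. INSIG1, which holds the SREBP processing machinery in the endoplasmic reticulum, was at 111.18 and 111.82 TPM with sgMETTL1.3 and at 190.06 and 184.73 TPM with sgMETTL1.6 (0.74 ± 0.036, limma adjusted p = 5.0e-08), with 158.49 and 155.64 TPM in sgNS. STARD4, a sterol carrier, was at 19.32 and 18.1 TPM against 31.04 and 29.51 TPM (0.67 ± 0.058). For INSIG1 the control lay between the guides, and for STARD4 too, at 28.14 and 26.42 TPM. IDI1, an early enzyme of the isoprenoid branch, was at 50.81 and 49.73 TPM with sgMETTL1.3, at 71.41 and 68.11 TPM with sgMETTL1.6 and 47.64 and 44.81 TPM with sgNS (0.46 ± 0.048). MSMO1, which demethylates sterols, was at 58.19 and 56.64 TPM against 80.79 and 76.39 TPM (0.45 ± 0.045), with 56.86 and 58.47 TPM in sgNS. Here sgMETTL1.3 was near the control and sgMETTL1.6 above it, an arrangement unlike that of SREBF1, FADS2 and SCD. HMGCS1, an early enzyme of the pathway, differed by 0.31 and SQLE, a later one, by 0.17. SREBF2, which encodes the factor that mainly drives these genes, was at 108.4 and 108.58 TPM against 109.15 and 111.08 TPM and did not pass the test (0.02, limma adjusted p = 0.72).

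Targets of the liver X receptors, sterol sensors that switch on cholesterol efflux, were split. Of 10 tested members, 3 were higher and 2 lower, and 1 was lower without either sgMETTL1.3 library or without sgMETTL1.6 replicate 1. Under each of the 3 other scalings, and after adjustment for transcript GC content and length, 3 were higher and 1 lower. The list median was -0.09, beside -0.05 for all genes. ABCA1, the efflux pump, was at 0.5 and 0.49 TPM with sgMETTL1.3, at 1.96 and 2.09 TPM with sgMETTL1.6 and at 5.77 and 5.92 TPM with sgNS (1.02 ± 0.099). With sgMETTL1.3 it lay under the 1 TPM of the filter, which it passed only through sgMETTL1.6. The ABCA1 difference ran from 0.35 to 1.84 over the alternatives. MYLIP, a ubiquitin ligase that limits lipoprotein uptake, was at 31.14 and 29.64 TPM against 52.32 and 52.63 TPM (0.77 ± 0.046), and the sgMETTL1.6 values were near the control's 54.75 and 55.88 TPM. LPCAT3, which remodels phospholipids, differed by 0.48 ± 0.053. APOE went the other way, at 22.52 and 22.29 TPM against 16.13 and 15.6 TPM (-0.47 ± 0.056), and NR1H2, a receptor itself, differed by -0.17. In the promoters of several of these genes the CCAAT box, bound by NF-Y, stands upstream of the start, and 5 stretches are shown to give the letters counted below in genes that were higher. Whether CCAAT bears on the differences was not tested. They are from RefSeq (GRCh38.p14), run 5′ to 3′ on the gene's strand, and capitals mark CCAAT or its reverse complement ATTGG.
INSIG1, chr7:155297683-155297737, plus strand: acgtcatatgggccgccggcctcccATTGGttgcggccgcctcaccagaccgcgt
STARD4, chr5:111512636-111512721, minus strand: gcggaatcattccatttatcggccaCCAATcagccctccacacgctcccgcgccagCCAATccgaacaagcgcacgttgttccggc
HMGCS1, chr5:43313483-43313592, minus strand: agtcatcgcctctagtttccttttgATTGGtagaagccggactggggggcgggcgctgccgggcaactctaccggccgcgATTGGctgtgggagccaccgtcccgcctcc
SCD, chr10:100346983-100347076, plus strand: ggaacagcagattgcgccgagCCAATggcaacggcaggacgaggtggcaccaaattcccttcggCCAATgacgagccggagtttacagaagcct
MYLIP, chr6:16128952-16129047, plus strand: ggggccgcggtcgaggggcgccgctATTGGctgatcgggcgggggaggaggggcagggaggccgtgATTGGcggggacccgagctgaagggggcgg

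From 250 bases before to 50 bases after the start, CCAAT on either strand was found in 16 of 20 matched promoters of the cholesterol list (80.0%), beside 3349 of 8923 promoters of all genes tested (37.5%). The share was 53.3% for the fatty acid list and 37.5% (3 of 8) for the LXR list, where APOE, which was lower, held it. It was 41.7% for the 15 genes highest and 44.4% for the 15 lowest with sgMETTL1.6. Other lists also had high shares, with 88.9% for the endoplasmic reticulum unfolded protein response and 75.6% for G2/M and mitosis, where 2 of 30 and 11 of 55 tested members were higher. The share was 79.3% for replication-dependent histones, where 1 of 31 tested members was higher and 9 were lower. TCACNCCAC, letters of a sterol element, was found in 1 of 20 cholesterol promoters (5.0%) and in 1.2% of all. These are counts of letters in a window, looked at in the cholesterol list after its values were seen.

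Antioxidant genes were the list with the largest share of members lower with sgMETTL1.6. NRF2, encoded by NFE2L2, is a transcription factor that KEAP1 holds back until oxidants or electrophiles appear, and its targets make glutathione, NADPH, haem-degrading and iron-storing proteins. Of 27 tested members, 21 were lower and 2 higher, with a median of -0.32 beside -0.05 for all genes. The count of lower members was 19 to 20 under the 3 other scalings and 22 after adjustment for transcript GC content and length.

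HMOX1 had the widest fall in the list, followed by OSGIN1 and then SLC48A1 and FTH1. HMOX1, which breaks down haem, was at 22.78 and 23 TPM with sgMETTL1.3, at 7.15 and 9.58 TPM with sgMETTL1.6 and at 13.09 and 14.75 TPM with sgNS (-1.36 ± 0.099, limma adjusted p = 2.0e-06). The control stood between the guides, so HMOX1 was higher than control with one guide and lower than control with the other. FTH1, the ferritin heavy chain, showed the same arrangement at a far higher level, at 4054.84 and 4017.35 TPM with sgMETTL1.3, at 2454.77 and 2465.68 TPM with sgMETTL1.6, and at 3338.94 and 3369.21 TPM in the control (-0.71 ± 0.022, limma adjusted p = 1.1e-09). FTL, the ferritin light chain, was at 8730.82 and 9006.08 TPM against 6530.05 and 6833.9 TPM (-0.41 ± 0.026). For FTL the sgNS libraries, at 6615.54 and 6765.64 TPM, lay within the range of sgMETTL1.6. SLC48A1, which exports haem from the lysosome, was at 13.39 and 13.86 TPM against 6.83 and 7.28 TPM (-0.86 ± 0.069), with 7.52 and 7.82 TPM in sgNS. Ferritin genes have many processed copies in the genome, and RSEM can divide reads among such copies.

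Several genes of glutathione, thioredoxin and NADPH metabolism were lower as well, while ABCC1, ABCC2, ABCC4 and GSTM4 of the list did not pass the test. NQO1, a quinone reductase used as a marker of NRF2 activity, was at 50.72 and 52.76 TPM with sgMETTL1.3, at 34.67 and 32.01 TPM with sgMETTL1.6 and 36.38 and 36.39 TPM with sgNS (-0.62 ± 0.051). OSGIN1, an oxidative stress response gene, was at 3.98 and 3.48 TPM against 1.0 and 1.01 TPM (-1.24 ± 0.11). SLC7A11, the cystine importer that feeds glutathione synthesis, was at 21.94 and 21.13 TPM against 13.8 and 12.74 TPM, and far above both in sgNS, at 75.34 and 71.18 TPM (-0.66 ± 0.057). The subunits of glutamate-cysteine ligase, GCLM and GCLC, differed by -0.35 and -0.28, glutathione reductase GSR by -0.37, thioredoxin reductase TXNRD1 by -0.30 and sulfiredoxin SRXN1 by -0.46. PGD (-0.32), TKT (-0.25) and TALDO1 (-0.20) of the pentose phosphate pathway were lower too. The members that rose were TXN, thioredoxin, by 0.22 and PRDX1, a peroxiredoxin, by 0.14. NFE2L2 itself differed by -0.12 (limma adjusted p = 0.040) and KEAP1 by -0.18. In the promoters, TGANNNNGC on either strand, letters of the antioxidant response element, was found in 11 of 20 matched promoters of this list (55.0%) and in 43.3% of all promoters, and CCAAT in 6 of 20. The search for TGANNNNGC was added after the data had been seen.

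**Figure D2:**
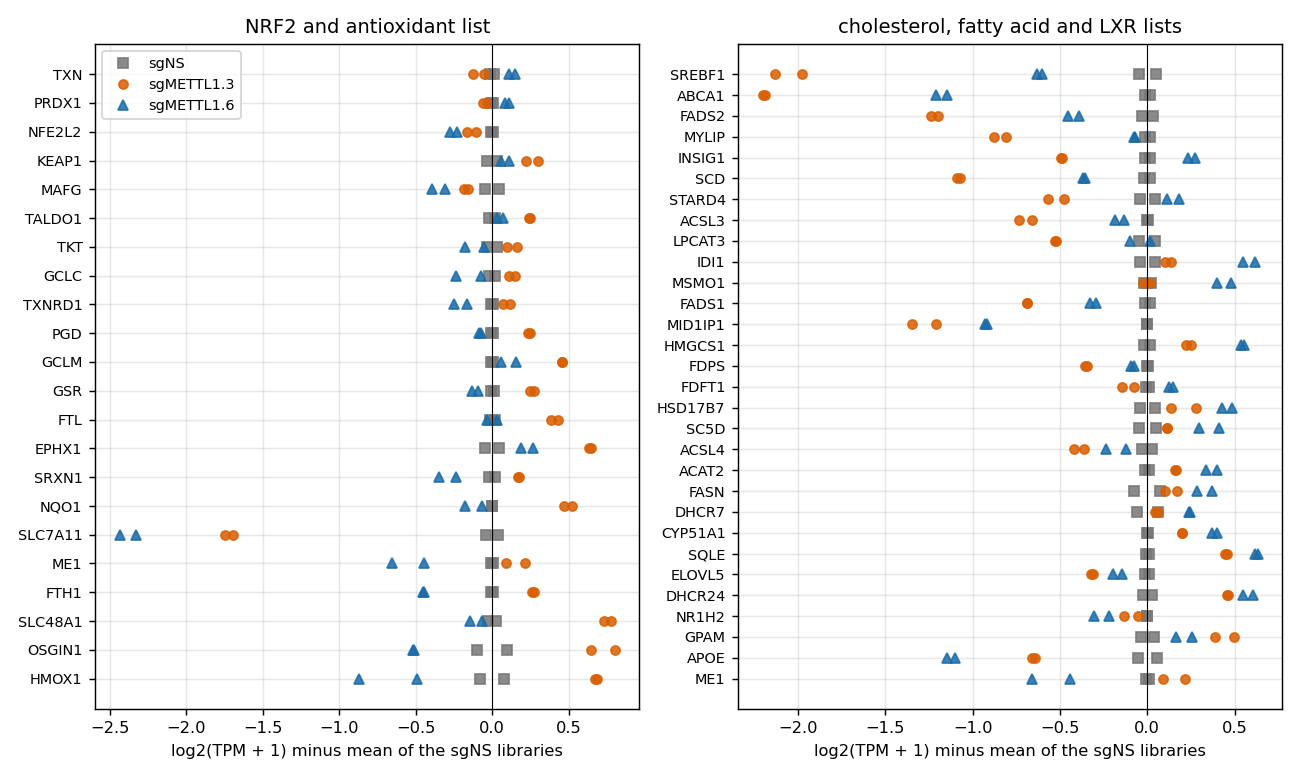
Called members of the antioxidant list (left) and of the cholesterol, fatty acid and LXR lists (right) is plotted as log2(TPM + 1) minus the mean of the 2 sgNS libraries, 1 symbol per library. In the left panel most sgMETTL1.3 symbols lie to the right of sgMETTL1.6, with HMOX1 and FTH1 on either side of the control, and in the right panel SREBF1, FADS2 and SCD lie left of the control for both guides.

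The integrated stress response is the ATF4 programme that cells switch on when translation initiation is held back, and its targets import and make amino acids. Of 40 tested members, 0 were higher and 22 lower with sgMETTL1.6, with a median of -0.15. Under the scalings 18 to 19 were lower and 1 to 2 higher. TRIB3, a pseudokinase target of ATF4, was at 85.98 and 89.29 TPM with sgMETTL1.3, at 52.73 and 55.88 TPM with sgMETTL1.6 and 342.12 and 360.98 TPM with sgNS (-0.68 ± 0.043, limma adjusted p = 5.2e-07). STC2, a secreted glycoprotein, was at 7.88 and 7.97 TPM against 4.44 and 4.08 TPM, with 37.64 and 38.89 TPM in sgNS (-0.76 ± 0.066). Both guides were far below the control for these genes and sgMETTL1.6 was the further below, the reverse of SREBF1. GDF15, a stress cytokine, was at 2.96 and 3.63 TPM against 1.29 and 1.03 TPM, with 20.48 and 21.44 TPM in sgNS (-0.99 ± 0.097). ATF5 was at 155.23 and 158.9 TPM against 98.03 and 103.8 TPM (-0.63 ± 0.039), SLC3A2, a partner of amino acid transporters, differed by -0.45, CHAC1, which degrades glutathione, by -0.50, SESN2 by -0.46, CEBPB by -0.49 and DDIT3 by -0.27. ATF4 was at 418.33 and 411.41 TPM against 389.85 and 401.42 TPM and did not pass the test (-0.07, limma adjusted p = 0.11). The serine synthesis gene PHGDH (0.08) and the mitochondrial folate gene MTHFD2 (0.05) did not pass it either, and ASNS, asparagine synthetase, differed by -0.13.

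Some of the genes that charge and modify tRNAs were lower. Of 22 tested aminoacyl-tRNA synthetases and their partners, 11 were lower and 0 higher (median -0.12), with 6 lower under median-ratio scaling and 5 without sgMETTL1.3 replicate 1. AARS, the alanyl-tRNA synthetase, was at 111.98 and 106.46 TPM against 89.54 and 89.23 TPM (-0.29 ± 0.040), WARS differed by -0.26 and SARS by -0.21. Of 66 tested tRNA modification genes, 21 were lower, 1 was higher and 44 did not pass the test (median -0.09), which fell to 9 lower and 3 higher under median-ratio scaling, and to 8, 9 and 9 lower without sgMETTL1.3 replicate 1, sgMETTL1.3 replicate 2 or sgMETTL1.6 replicate 1. Within the list METTL1 stood lowest. TRMT61A, the catalytic subunit of a tRNA m1A methyltransferase, was at 14.84 and 14.07 TPM against 10.95 and 12.1 TPM (-0.30 ± 0.069), and CDK5RAP1, which acts on mitochondrial tRNAs, differed by -0.26. TRMT10C, a subunit of mitochondrial RNase P, was the member that rose, from 77.71 and 79.89 TPM to 98.66 and 91.16 TPM (0.26 ± 0.050), a call lost without the filter on low values.

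**Figure D3:**
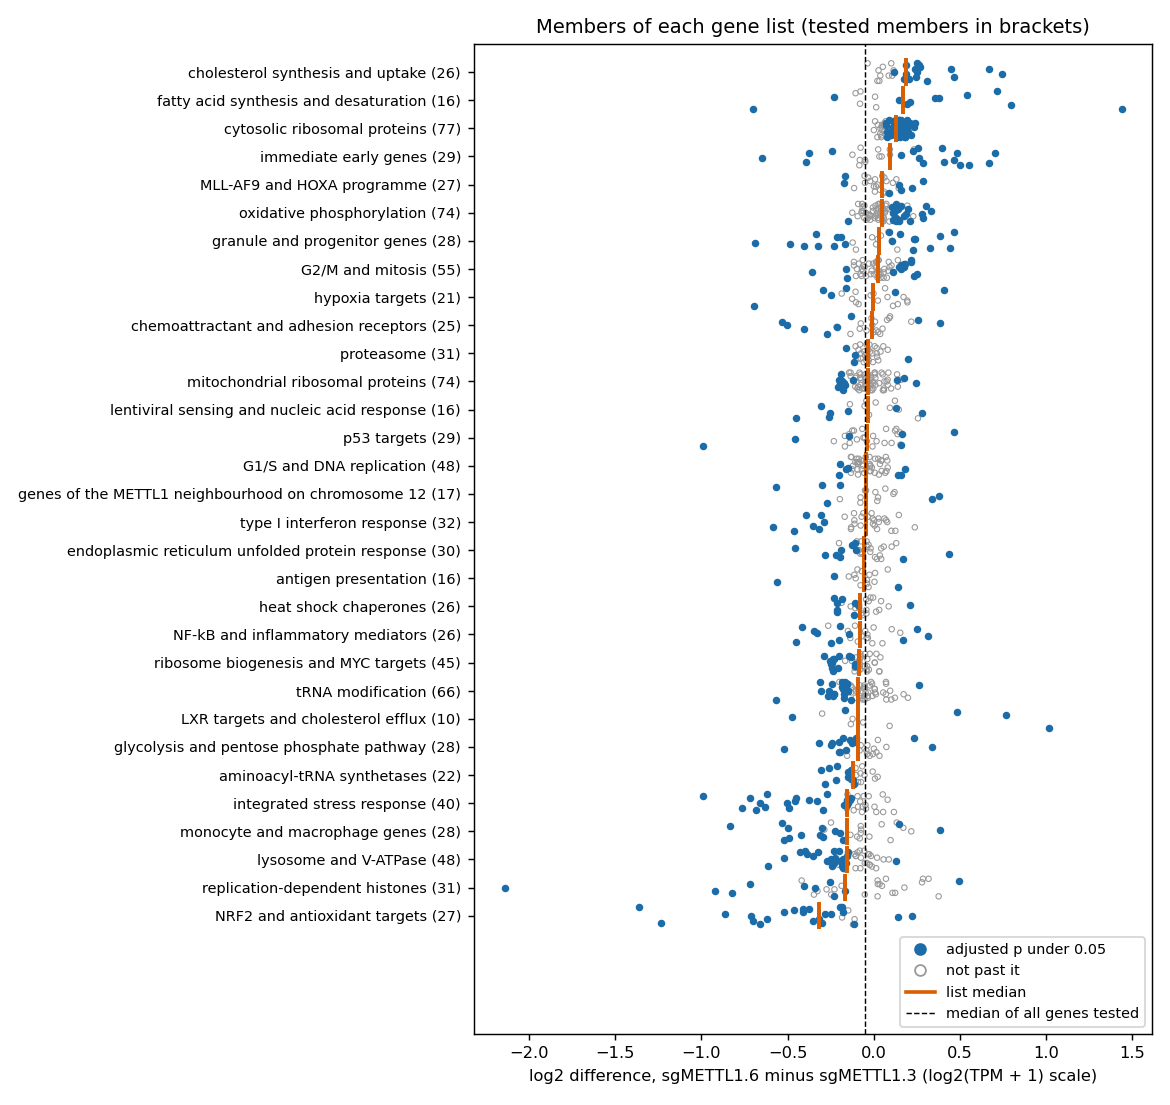
Each symbol is a tested member of a gene list (number tested in brackets) at its log2 difference, sgMETTL1.6 minus sgMETTL1.3, filled where adjusted p was under 0.05. Orange bars mark list medians and the dashed line the median of all genes, -0.05; the cholesterol list has the highest median (0.19) and the antioxidant list the lowest (-0.32).

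Lysosomal genes, which encode the acid hydrolases and the proton pump of the cell's degradative compartment, had more members lower than higher with sgMETTL1.6. Of 48 tested members, 24 were lower, 1 was higher and 23 did not pass the test, with a median of -0.16, and 18 to 19 were lower under the scalings. GRN, which encodes progranulin, was at 484.44 and 508.39 TPM with sgMETTL1.3, at 311.8 and 337.8 TPM with sgMETTL1.6 and 358.78 and 369.14 TPM with sgNS (-0.61 ± 0.040). CTSD, cathepsin D, was at 589.03 and 610.2 TPM against 399.71 and 437.24 TPM (-0.52 ± 0.040), with 501.75 and 516.21 TPM in sgNS. For both genes the control lay between the guides. NEU1, a sialidase, differed by -0.35, TPP1 by -0.25 and the lysosomal calcium channel MCOLN1 by -0.39. TFE3 and TFEB, transcription factors of lysosomal genes, differed by -0.40 and -0.23.

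Myeloid maturation genes did not move as a block. Of 28 tested monocyte and macrophage genes, 12 were lower and 2 higher (median -0.16). S100A8 and S100A9, the subunits of calprotectin, were lower: S100A8 was at 3281.22 and 3280.06 TPM with sgMETTL1.3, at 2312.57 and 2255.55 TPM with sgMETTL1.6 and 2100.77 and 2005.75 TPM with sgNS (-0.52 ± 0.027), and S100A9 differed by -0.50 ± 0.029. Both guides were above the control for S100A8. MS4A6A, a membrane protein of monocytes, was at 14.54 and 12.29 TPM against 7.48 and 6.66 TPM (-0.83 ± 0.092), and the chemokine receptor CCR2 was at 33.28 and 34.35 TPM against 24.63 and 21.52 TPM (-0.54 ± 0.069). SPI1, which encodes the myeloid factor PU.1, differed by -0.23, IRF8 by -0.30 and lysozyme LYZ by -0.20, while CX3CR1, a receptor of patrolling monocytes, rose by 0.38. Of 28 tested granule and progenitor genes, 10 were higher and 9 lower (median 0.03). PRTN3, proteinase 3, was at 599.77 and 633.58 TPM against 427.45 and 452.89 TPM (-0.49 ± 0.037) and ELANE, neutrophil elastase, differed by -0.19, whereas CTSG, cathepsin G, differed by 0.23 and MPO by 0.22. CST7, an inhibitor of cathepsins, was at 92.81 and 92.25 TPM against 122.72 and 133.88 TPM (0.47 ± 0.044), and CD38 was at 17.61 and 16.69 TPM against 10.42 and 10.11 TPM (-0.69 ± 0.065). Granule proteases therefore differed in both directions. In bulk RNA, fewer cells of a kind and less RNA per cell cannot be told apart. The 12 myeloid markers summed to 14794 to 15073 TPM with sgMETTL1.3 and 13006 to 13193 TPM with sgMETTL1.6, most of it LYZ, at 10826.8 and 10744.4 TPM against 9619.53 and 9205.5 TPM. Among these markers LYZ, ELANE, CD68 and SPI1 were lower, MPO and PTPRC were higher, CD33, ITGAM, FCGR1A and CEBPA did not pass the test, and CD14 and CSF1R were under 1 TPM in every library. The T cell genes CD3D, CD3E and CD2, MS4A1 of B cells, PF4 of platelets and KRT5 of epithelium were listed at 0 in all 6 libraries. Of 27 tested genes of the MLL-AF9 and HOXA programme, 5 were higher and 2 lower (median 0.05), with 2 higher without sgMETTL1.3 replicate 2 or sgMETTL1.6 replicate 1. HOXA9 was at 80.67 and 76.75 TPM against 88.75 and 87.18 TPM (0.16 ± 0.042), a call lost without sgMETTL1.3 replicate 2, sgMETTL1.6 replicate 1, the filter or the variance trend. BCL2 differed by 0.22.

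Immediate early genes, which growth and stress signals switch on within minutes, were more often higher. Of 29 tested, 13 were higher and 4 lower (median 0.09). FOSB was at 67.51 and 66.57 TPM with sgMETTL1.3, at 104.1 and 116.14 TPM with sgMETTL1.6 and 125.46 and 136.91 TPM with sgNS (0.71 ± 0.054), and FOS was at 499.32 and 506.24 TPM against 695.85 and 730.47 TPM, with 932.02 and 932.5 TPM in sgNS (0.50 ± 0.030). DUSP1, a MAP kinase phosphatase, differed by 0.48, EGR2 by 0.67, NR4A2 by 0.56 and BTG2 by 0.46. For FOSB and FOS the order of the groups was that of SREBF1, with sgMETTL1.3 lowest and the control highest. The members that fell were IER3, from 34.86 and 34.6 TPM to 21.79 and 21.86 TPM (-0.65 ± 0.048), ZFP36L1 (-0.40), ATF3 (-0.37), which is also in the stress list, and KLF10 (-0.24).

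Cytosolic ribosomal protein genes had small differences, from 0.0004 to 0.24. Of 77 tested, 57 were higher with sgMETTL1.6, 0 were lower and 20 did not pass the test, with a median of 0.13. The 57 became 66 under median-ratio scaling and 40 with 1 lower under quantile scaling, and 20 when the test used no variance trend. RPL31 was at 780.21 and 776.35 TPM with sgMETTL1.3, at 924.67 and 914.16 TPM with sgMETTL1.6 and 1039.28 and 1031.3 TPM with sgNS (0.24 ± 0.026), and RPS25 differed by 0.23. Together these genes took 20.1% and 20.2% of all TPM with sgMETTL1.3, 22.0% in both sgMETTL1.6 libraries and 22.9% and 22.5% in sgNS. Oxidative phosphorylation genes had 20 members higher and 1 lower of 74 (median 0.05), with 11 and 12 higher without sgMETTL1.3 replicate 1 or 2, and 10 higher and 3 lower after adjustment for GC content and length. SDHD, a subunit of complex II, was at 223.04 and 239.24 TPM against 288.79 and 282.81 TPM (0.31 ± 0.043), and COX6C of complex IV differed by 0.28. Mitochondrial ribosomal protein genes were 3 higher and 10 lower of 74 (4.1% and 13.5%, beside 7.24% and 15.9% of all genes). Under median-ratio scaling 7 were higher and 4 lower, and the median turned from -0.03 to 0.01. Without sgMETTL1.3 replicate 1, sgMETTL1.3 replicate 2 or sgMETTL1.6 replicate 1, 6, 5 and 6 were lower.

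Growth and metabolic lists differed in how many members were called. Of 45 tested ribosome biogenesis genes and MYC targets, 14 were lower and 0 higher (median -0.08), with 8 lower under median-ratio scaling and 8 and 9 without sgMETTL1.3 replicate 1 or 2. CAD, which starts pyrimidine synthesis, differed by -0.29 and ODC1, which starts polyamine synthesis, by -0.24. Of 28 genes of glycolysis and the pentose phosphate pathway, 13 were lower (46.4%, beside 15.9% of all genes) and 2 higher, with 7 lower without sgMETTL1.3 replicate 2, 8 without sgMETTL1.6 replicate 1 and 6 under median-ratio scaling. HK2, a hexokinase, was at 88.18 and 85.99 TPM against 73.44 and 73.58 TPM (-0.24 ± 0.040), and SLC2A3, a glucose transporter, rose by 0.34. Of 48 genes of G1/S and DNA replication, 3 were higher and 4 lower, so that 14.6% were called beside 23.1% of all genes. Median-ratio scaling gave 5 higher and 3 lower, with a median that turned from -0.04 to 0.002. The lower members were 1 without sgMETTL1.3 replicate 2 and 2 without sgMETTL1.6 replicate 1, and the higher members 0 without sgMETTL1.3 replicate 1 and 1 without either of the other 2. With a replicate block 12 were lower. G2/M genes were 11 higher and 3 lower of 55, with 2 higher without sgMETTL1.6 replicate 1, 3 without sgMETTL1.3 replicate 2 and 6 without sgMETTL1.3 replicate 1. After adjustment for GC content and length 9 were higher and 6 lower, and the G2/M median turned from 0.02 to -0.02. Without sgMETTL1.6 replicate 1 that median was -0.03. CKS2, a regulator of cyclin-dependent kinases, was at 348.01 and 365.24 TPM against 436.38 and 414.08 TPM (0.25 ± 0.036), and MKI67 differed by -0.16. Targets of p53 were 3 higher and 3 lower of 29 (20.7% called), and 5 higher and 2 lower under median-ratio scaling. Without sgMETTL1.3 replicate 2 or sgMETTL1.6 replicate 1, 1 was higher. Hypoxia targets were 2 higher and 4 lower of 21 (28.6% called). Median-ratio scaling gave 4 higher and 3 lower, with a median that turned from -0.002 to 0.04. Their higher members were 5 without sgMETTL1.6 replicate 2, 1 without sgMETTL1.3 replicate 1 and 0 without sgMETTL1.3 replicate 2 or sgMETTL1.6 replicate 1, and their lower members were 2 without either of the latter. VEGFA, the vascular growth factor, fell from 63.15 and 62.24 TPM to 38.1 and 38.66 TPM, with 206.77 and 217.65 TPM in sgNS (-0.69 ± 0.042).

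Proteostasis, inflammatory and surface receptor lists had more members lower than higher, as did all genes tested (15.9% lower and 7.24% higher). The share called lay on either side of the 23.1% of all genes. For proteasome genes (9.7%) and antigen presentation genes (12.5%) the share lower was under that of all genes. Of 30 genes of the endoplasmic reticulum unfolded protein response, 2 were higher and 8 lower, with 3 to 5 lower without any one of the guide libraries. XBP1, a transcription factor of that response, rose from 258.13 and 254.15 TPM to 347.87 and 344.89 TPM (0.43 ± 0.030), while ERN1, the kinase that splices it, fell from 12.26 and 12.21 TPM to 9.0 and 8.33 TPM (-0.45 ± 0.064). The sensor's gene and its substrate's gene thus differed in opposite directions. Heat shock chaperones were 1 higher and 8 lower of 26, with 4 lower under median-ratio scaling and 5 without sgMETTL1.3 replicate 1. Proteasome genes were 1 higher and 3 lower of 31, with 2 higher and 0 lower under median-ratio scaling, where the median turned from -0.03 to 0.01. Without sgMETTL1.3 replicate 1 no proteasome gene was lower, and 1 was lower without sgMETTL1.3 replicate 2 or sgMETTL1.6 replicate 1. Type I interferon genes were 0 higher and 7 lower of 32, so that 21.9% were called, near the 23.1% of all genes, with 4 lower without sgMETTL1.3 replicate 2 and a median that turned from -0.05 to 0.005 under quantile scaling. NF-kB genes were 3 higher and 8 lower of 26 (42.3% called). OAS3, an antiviral synthetase, was at 3.74 and 3.52 TPM against 2.14 and 2.04 TPM (-0.58 ± 0.092), and RELB, a subunit of NF-kB, at 8.17 and 8.09 TPM against 6.01 and 5.7 TPM (-0.41 ± 0.070). Genes that sense or restrict incoming lentivirus were 2 higher and 5 lower of 16, with 3 lower without sgMETTL1.3 replicate 2 and under median-ratio scaling, where the median turned from -0.04 to 0.01. SAMHD1, which depletes nucleotides, was at 151.2 and 146.05 TPM against 108.5 and 108.37 TPM (-0.45 ± 0.038). Antigen presentation genes were 1 higher and 2 lower of 16, with IFI30, a lysosomal thiol reductase, at 145.93 and 146.85 TPM against 98.39 and 99.43 TPM (-0.56 ± 0.037). Adhesion and chemoattractant receptors were 2 higher and 6 lower of 25, which became 5 and 5 under median-ratio scaling, with a median that turned from -0.01 to 0.04. PECAM1 was at 100.05 and 98.54 TPM against 71.03 and 68.59 TPM (-0.50 ± 0.042).

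The genes with the widest differences, taken among those with at least 5 TPM on average, included several that belong to no list above. RGS16, a regulator of G protein signalling, was at 17.97 and 18.35 TPM with sgMETTL1.3, at 7.23 and 6.71 TPM with sgMETTL1.6 and 17.7 and 17.59 TPM with sgNS (-1.27 ± 0.063, limma adjusted p = 5.9e-08). For RGS16 sgMETTL1.3 was close to the control and sgMETTL1.6 alone was low. RGS1, of the same family, was at 7.38 and 6.94 TPM against 4.62 and 2.87 TPM (-0.81 ± 0.13), and lost its call without the filter on low values. CPT1A, which carries fatty acids into mitochondria for oxidation, was at 103.94 and 99.82 TPM against 58.11 and 60.14 TPM, with 33.66 and 36.43 TPM in sgNS (-0.77 ± 0.049). EPAS1, which encodes HIF-2 alpha, was at 14.41 and 12.86 TPM against 6.38 and 7.08 TPM, with 2.32 and 2.36 TPM in sgNS (-0.92 ± 0.083). CPT1A and EPAS1 had the order opposite to SREBF1: highest with sgMETTL1.3 and lowest in the control. CYP27A1, a sterol hydroxylase, differed by -0.89 and MGLL, which hydrolyses monoacylglycerols, by -0.75.

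FAM69C was at 4.83 and 5.29 TPM with sgMETTL1.3, at 11.26 and 11.22 TPM with sgMETTL1.6 and 14.72 and 15.18 TPM with sgNS (1.02 ± 0.069). LY96, the MD-2 subunit of the endotoxin receptor, was at 3.72 and 5.91 TPM against 9.74 and 8.99 TPM, with 16.51 and 18.2 TPM in sgNS (0.86 ± 0.13), and lost its call without the filter on low values. TICAM2, an adaptor of the same receptor, was at 6.23 and 5.14 TPM against 8.94 and 9.89 TPM (0.64 ± 0.093). Of the other genes highest with sgMETTL1.6, GOLGA8J differed by 0.75, C2orf48 by 0.64, SHISA2 by 0.63 and GNG10 by 0.59. Of the other genes lowest with it, TRIM16L differed by -1.08, TPSB2, a mast cell tryptase, by -0.75 and HP, haptoglobin, by -0.71. GOLGA8J, TRIM16L and TPSB2 have near-identical copies, so their values are uncertain. TRIM16 and TPSAB1, near copies of the latter pair, differed by -0.59 and -0.57. HIST1H4K, one of many near-identical histone H4 genes, was at 12.57 and 11.3 TPM with sgMETTL1.3 and at 7.56 and 0 TPM with sgMETTL1.6. Its call was lost without sgMETTL1.3 replicate 1 or 2, without the filter or the variance trend and under median-ratio and quantile scaling, and no fold is given.

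**Figure D4:**
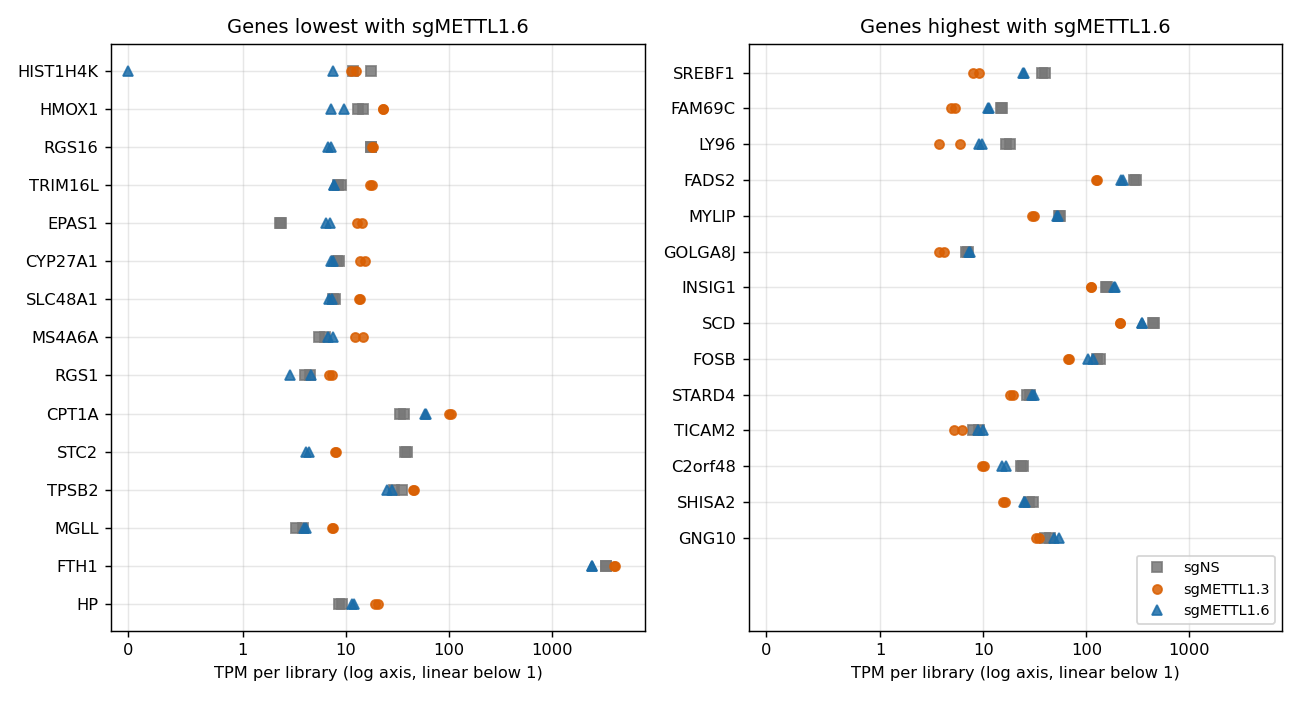
TPM in each of the 6 libraries (log axis, linear below 1) for genes among the 15 lowest and the 15 highest with sgMETTL1.6, taken from called genes with at least 5 TPM on average, 1 symbol per library. The guides' symbols do not overlap, which was a condition of the choice, while the sgNS symbols lie on either side, as for EPAS1 at 2.32 and 2.36 TPM and SREBF1 at 37.25 and 39.85 TPM.

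GC content moved with the direction of the calls. Over 10596 genes with an annotated transcript, the log2 difference between the guides correlated with transcript GC content at a Spearman's rho of -0.32 and with length at -0.08. These are descriptions across genes, which share the same 4 libraries. In the quintile of genes with the lowest GC content 13.5% were higher and 5.19% lower with sgMETTL1.6, and in the quintile with the highest 3.11% were higher and 23.3% lower. Replicates of a group differed along GC content too, with a rho of 0.56 between the sgMETTL1.6 libraries, 0.37 between the sgMETTL1.3 libraries and 0.40 between the sgNS libraries. Between sgMETTL1.6 replicate 2 and sgMETTL1.3 replicate 1 the rho was 0.0012. After adjustment of each library for GC content and length 856 genes were higher and 2309 lower. Of the 2515 genes called before it, 2149 were called again, all in the same direction. Among the 142 called genes named by the rule, 141 kept their call in the same direction. The rule mostly chose genes for low p or wide differences in the same data, which favours keeping a call.

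**Figure D5:**
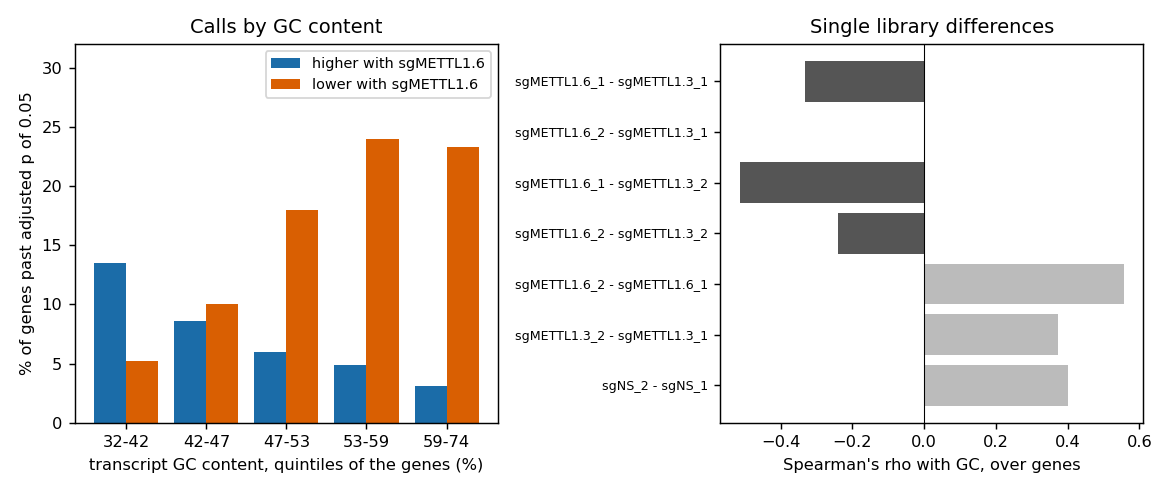
Left, the share of genes called higher or lower with sgMETTL1.6 in quintiles of the genes by transcript GC content (%): lower calls rise from 5.19% in the GC-poorest quintile to 23.3% in the richest. Right, Spearman's rho over genes between GC content and the difference of single library pairs, dark bars between guides and pale bars between replicates, the widest of the latter being 0.56 between the sgMETTL1.6 libraries.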

How the data were processed

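The authors deposited 1 table of TPM for 18806 gene symbols in 6 poly(A) libraries. The submitters' processing notes name RSEM 1.2.31 and GRCh38, while the aligner is not given in the sources used here, nor is the annotation. RSEM divides reads among similar transcripts by estimation. Because TPM holds no read totals, library depth and counting error are unknown, and abundant genes move the TPM of the rest. Columns were assigned to samples by their names, with 0 unmapped.

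TPM were put on the log2(TPM + 1) scale and fitted with limma 3.58.1 (R 4.3.3). All 6 libraries entered 1 model of 3 groups (3 residual and 10.0 prior degrees of freedom), with a variance trend on mean level. Two-sided p-values were adjusted by Benjamini-Hochberg over all 10868 genes, with calls at 0.05, and the fit was tested on simulated data. There were 31 gene lists (1154 genes, 1129 matched, 83 under an older symbol), described by counts. The members and lists were chosen with earlier results of these data known. The genes named by rule were METTL1, WDR4, the 15 highest and 15 lowest called genes with at least 5 TPM, up to 4 called members of each list with the lowest p, and called neighbours of METTL1. Other list members in the text were chosen after their values were seen. Positions are from GENCODE 29, matched by symbol, and promoters from RefSeq. Alternatives changed the pseudocount, filter, scaling, variance trend, libraries in the model and replicate block, and left out each library. An adjustment for GC content and length was chosen after seeing the data. Some genes are not reported here by name, in the text or the figures, and are counted in the lists.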

Additional observations from a re-analysis of the deposited data

How the results depend on the processing

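The count of genes that differed between the guides moved most with the filter, the variance trend, the replicate block and single libraries. Without a filter on low values 1023 genes were called (332 higher, 691 lower) and without the variance trend 1436 (463 higher, 973 lower). Median-ratio scaling gave 808 lower, quantile scaling 801 and rescaling without ribosomal protein genes 979, with the higher calls given in the report. Leaving out 1 library at a time gave 1223 to 2499 calls in all, 430 to 824 higher and 793 to 1675 lower, with 1291 without sgMETTL1.3 replicate 1, 1223 without sgMETTL1.3 replicate 2 and 1456 without sgMETTL1.6 replicate 1. A group left with 1 library was assumed to vary like the others. The cause of these changes was not tested, except that fewer libraries and more genes tested follow from the settings themselves. With a replicate block 3614 genes were called (1102 higher, 2512 lower). Same-numbered libraries deviated together at r = 0.007 (sgNS and sgMETTL1.3), 0.30 (sgNS and sgMETTL1.6) and 0.24 (sgMETTL1.3 and sgMETTL1.6) over 9282 genes. The last value, 0.24, is that of the 2 guides compared here. The labels give no shared batch and the block stayed an alternative, as planned, so the main test ignores any such pairing. The second principal component and the GC content values split replicates 1 and 2 the same way in both guides. The GC content values did so in sgNS as well (rho of 0.40). Beyond these values, whether same-numbered libraries share more than a number was not tested. Of the 142 called genes named by the rule, mostly chosen for low p or wide differences, none changed direction under any of these settings. Without the filter 21 lost their call, without the variance trend 14, and without sgMETTL1.3 replicate 1 16. METTL1 kept its call in all 18 alternatives. With 2 libraries a group, an unknown depth and 1 clone, small differences rest on the spread borrowed across genes.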

Other observations

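Around METTL1 on chromosome 12, 29 genes within 1 Mb were tested, of which 2 were higher and 7 lower with sgMETTL1.6, METTL1 included, with a median of -0.04 beside -0.05 for all genes. ATP23, a mitochondrial peptidase gene, was at 21.69 and 22.05 TPM with sgMETTL1.3 and at 29.22 and 28.15 TPM with sgMETTL1.6 (0.38 ± 0.052, limma adjusted p = 0.00041), with 26.12 and 25.21 TPM in sgNS. ARHGEF25 was at 3.58 and 3.73 TPM against 4.91 and 4.86 TPM (0.34 ± 0.084), and lost its call without sgMETTL1.3 replicate 1, without sgMETTL1.6 replicate 1 and without the filter on low values. PIP4K2C, a lipid kinase, was at 15.5 and 16.21 TPM against 12.85 and 12.56 TPM (-0.30 ± 0.061), and CDK4, a cell cycle kinase, at 251.83 and 256.86 TPM against 216.29 and 228.11 TPM (-0.19 ± 0.037). METTL21B and CYP27B1, whose positions overlap METTL1 on either side, did not pass the test (0.11 and -0.20). TSFM, which lies beyond METTL21B, did not pass it either (0.02). Among 17 tested genes of a list of METTL1's neighbours, METTL1 included, 2 were higher and 4 lower, and the median turned from -0.04 to 0.01 under quantile scaling. By chromosome, the share of genes called lay between 16.8% on chromosome 14 and 28.9% on chromosome 17.

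Of 31 tested replication-dependent histone genes, whose transcripts normally lack a poly(A) tail, 9 were lower and 1 higher with sgMETTL1.6, with 3 lower without sgMETTL1.3 replicate 2 and 1 lower without the filter on low values. HIST1H2BK was at 366.61 and 378.65 TPM against 337.44 and 326.23 TPM (-0.17 ± 0.033), and HIST2H2AA3 at 41.66 and 42.98 TPM against 34.0 and 36.56 TPM (-0.26 ± 0.058). The call of HIST1H2BK was lost without the variance trend, and that of HIST2H2AA3 without sgMETTL1.3 replicate 2 or the filter. HIST1H4J, the member that rose, was at 16.94 and 23.75 TPM against 29.58 and 27.72 TPM (0.49 ± 0.16). These genes encode near-identical proteins and their values are uncertain.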
